A study of Homo sapiens with 12 samples.

Results

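The genes described here build the DNA replication machinery and time its start: 45 genes for origin recognition, licensing and firing, for the primase and lagging strand, for nucleotide supply and for the E2F and cyclin control of the step from G1 into S phase. They were chosen by name for their known function, with earlier results of these data known, and all 45 were found among the 35238 genes of the deposited table. The cells were HK-2, an immortalised human kidney proximal tubule line, so all libraries come from 1 cell line. They were transfected with 10 nM of a scrambled siRNA (SCR) or of an siRNA against POLR2A (siB), and at the same time given either AAI (aristolochic acid I, a compound of Aristolochia plants that forms bulky DNA adducts) at 25 µM in DMSO, or DMSO alone, for 24 hours. The 4 groups were SCR DMSO, SCR AAI, siB DMSO and siB AAI, with 3 replicates each. The target, POLR2A, codes for RPB1, the catalytic core protein of RNA polymerase II. Nothing in the labels says that replicates were separate cultures, so p-values measure the spread between these libraries, which may be technical.

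DNA replication is prepared in G1, when the origin recognition complex (ORC), CDC6 and CDT1 load the ring-shaped MCM helicase onto DNA, and is fired in S phase, when DBF4-dependent CDC7 kinase and cyclin-dependent kinases add CDC45 and the GINS complex to it. E2F factors switch on most of these genes once cyclin-dependent kinases have inactivated the retinoblastoma protein, and E2F7 and E2F8 then repress them. In kidney tubule cells DNA damage commonly stops the cell cycle, and the RNA of these genes is often read as a sign of cycling. In bulk RNA, fewer cells in S phase and less RNA per cell cannot be told apart.

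Promoters of 38 of the 45 members were matched by symbol to RefSeq windows (GRCh38.p14) running from 250 bases before to 50 bases after the annotated start. The windows of MCM4, MCM5, GINS4, E2F8, CCNE2, CCND1 and CDK2 were not used here. An E2F core, spelled TTTCCCGC, TTTCGCGC, TTTGCCGC or TTTGGCGC and searched on both strands, was present in 19 of the 38 windows (50%). It was present in 908 of 27305 promoter windows of the whole RefSeq table (3.33%) and in 544 of the 10601 of genes with a mean of at least 1 CPM (5.13%). With TTTGGCGC alone the counts were 8 of 38 members (21.1%), 0.659% of all windows and 1.08% of those of expressed genes. In MCM2 and MCM6 paired matches on the 2 strands overlapped each other. A match describes the letters of the window and does not show that a factor bound there.

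The 6 members on which the results turn most are shown from 100 bases before to 50 bases after the start, 5′ to 3′ on the gene's strand, with E2F cores in capitals. They were chosen after their values were seen. The first 4, E2F1, E2F2, CDC25A and CDT1, each hold at least 1 core, and ORC6 and RRM2 hold none in their whole windows. The windows lie at chr20:33686336-33686485 (minus strand) for E2F1, chr1:23531184-23531333 (minus strand) for E2F2, chr3:48188368-48188517 (minus strand) for CDC25A, chr16:88803689-88803838 (plus strand) for CDT1, chr16:46689559-46689708 (plus strand) for ORC6 and chr2:10122639-10122788 (plus strand) for RRM2.
E2F1: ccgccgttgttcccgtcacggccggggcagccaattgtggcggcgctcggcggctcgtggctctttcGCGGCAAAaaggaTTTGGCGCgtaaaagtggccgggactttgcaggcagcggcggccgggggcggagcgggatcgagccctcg
E2F2: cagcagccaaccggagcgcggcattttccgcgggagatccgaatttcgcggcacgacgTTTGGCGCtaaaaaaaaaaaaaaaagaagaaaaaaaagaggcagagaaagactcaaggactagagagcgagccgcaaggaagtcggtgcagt
CDC25A: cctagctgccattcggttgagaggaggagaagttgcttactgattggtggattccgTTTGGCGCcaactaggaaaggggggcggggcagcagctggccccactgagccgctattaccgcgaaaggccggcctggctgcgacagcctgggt
CDT1: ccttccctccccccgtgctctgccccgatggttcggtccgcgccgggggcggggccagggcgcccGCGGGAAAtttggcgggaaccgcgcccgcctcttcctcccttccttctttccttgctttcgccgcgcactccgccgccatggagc
ORC6: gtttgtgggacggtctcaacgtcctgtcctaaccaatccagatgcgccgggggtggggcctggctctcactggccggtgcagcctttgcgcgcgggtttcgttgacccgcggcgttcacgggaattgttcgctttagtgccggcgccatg
RRM2: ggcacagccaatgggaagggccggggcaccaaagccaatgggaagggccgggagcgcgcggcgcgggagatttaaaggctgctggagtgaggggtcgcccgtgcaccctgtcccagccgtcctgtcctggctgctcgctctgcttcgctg
The cores in E2F1 began 33 and 20 bases before the start, and those in CDC25A, E2F2 and CDT1 began 44, 42 and 35 bases before it.

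Values are given in CPM, the reads of a gene scaled to a common library total,, and a difference is the change of log2(CPM + 1), positive where the first-named group is higher and slightly understated for low genes. The recovered depth ran from 15844015 to 42805294 reads per library, and the 45 members ranged from 5.28 to 681 CPM, so each was measured well above the limit that 0 reads allow. POLR2A, the siRNA target, stood at 258, 288 and 306 CPM in the SCR DMSO libraries, 673, 719 and 729 in SCR AAI, 138, 143 and 139 in siB DMSO and 266, 220 and 210 in siB AAI. It was lower in every siB library than in any SCR library of the same treatment. All 5 epithelial markers (KRT8, KRT18, KRT19, PAX8 and EPCAM) were expressed, summing to 1339 to 2291 CPM per library. Of 8 proximal tubule markers 2 to 4 reached a mean of 1 CPM in a group, and the 8 summed to 111 to 193 CPM per library. Transporter genes such as SLC34A1 and SLC22A6 were near 0. Of 8 markers of other cell types (immune, endothelial, mesenchymal, thick limb and podocyte), 4 to 6 reached that mean. These summed to 82.1 to 149 CPM per library, so the markers did not single out the proximal tubule.

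One control library stood apart, and it bears on every comparison with SCR DMSO. In SCR DMSO replicate 2, 30 of the 45 members were lower than the mean of replicates 1 and 3, 13 of them by more than 1 on the log2 scale, and 20 members had their lowest level of all 12 libraries there. POLA1, the catalytic subunit of DNA polymerase alpha, differed there by -2.16 on the log2 scale. MCM8, an MCM relative with roles in recombination, differed by -2.06, and the median member by -0.30. The difference went with gene length: the median was -0.0068 over the 24 members with a span under 30 kb and -0.78 over the 21 longer ones, with a Spearman rho of -0.53 across the 45 members, given as a description because all points share the same 3 libraries. CCND1 (cyclin D1) differed the other way and had its low value in replicate 1 (43.3 CPM against 151 and 141). Whether these offsets caused any result given here was not tested; values printed below that change their call or direction, or move by over 1.5 times, without SCR DMSO replicate 2 are given both ways.

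**Figure D1:**
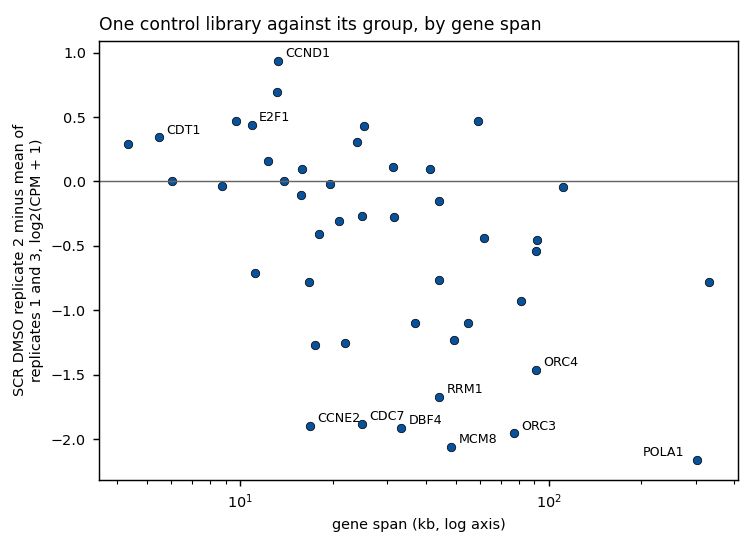
Difference of SCR DMSO replicate 2 from the mean of replicates 1 and 3, in log2(CPM + 1), for the 45 genes (points) against gene span in kb on a log axis. Short genes scatter around 0, while most of the points under -1 are genes with a longer span, and POLA1 (-2.16), MCM8 (-2.06) and ORC3 (-1.95) lie lowest.

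With AAI in control (SCR) cells, 2 of 5 E2F factors, 1 of 5 G1/S cyclins and kinases, 2 of 6 origin recognition subunits and 1 of 3 licensing factors rose, 1 of 5 genes for the primase and lagging strand fell, and none of the 6 MCM helicase subunits or 4 nucleotide enzymes passed. At an adjusted p under 0.05, 7 of 45 members changed (background 12.3% of the 14228 genes tested). Of these, 6 rose (background 8.98%): E2F1, E2F2, CDC25A, ORC1, ORC6 and CDT1. POLA2 fell (background 3.36%). By at least 2-fold, 4 rose (background 7.73%) and 0 fell (background 2.73%). With median-ratio scaling these were 2 risen and 1 fallen, where 917 and 716 of the 14228 genes did so. In 14 members every SCR AAI library lay above every SCR DMSO library (background 22.2%) and in 4 below (background 11.5%). The members' median difference was 0.43 against 0.18 over all genes tested. With median-ratio scaling both medians moved down, to 0.22 and -0.02, so that the members stood 0.25 above the median of all genes under the first scaling and 0.24 under the second. The number of members above 0 went from 36 to 27 with that scaling and to 29 without SCR DMSO replicate 2, where the medians were 0.14 and 0.06. Same-numbered libraries deviated together in this comparison, though no label says that they were paired. With the replicate number as a block 10 members changed, the same 7 and MCM10, E2F8 and CCNE2. With all 4 groups in the fit 13 rose and 1 fell, the members that rose now including ORC5, MCM2, CDC45, MCM10, E2F8, CCNE1 and CCNE2. That fit called 3784 of the 14228 genes.

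With AAI in knockdown (siB) cells, 4 of 5 E2F factors, 3 of 5 G1/S cyclins and kinases and 2 of 6 origin recognition subunits rose, while 2 of 4 nucleotide enzymes, RRM2 and TK1, fell. Here 20 of 45 members changed, where the background was 52.2% of 14928 genes. The 15 that rose (background 30.4%) included all E2F genes but E2F3. The 5 that fell (background 21.8%) were RRM2, TK1, POLA2, PRIM1 and MCM5. By at least 2-fold, E2F1, ORC6 and MCM10 rose (3 members, background 13.9%) and RRM2 fell (1 member, background 5.79%). With median-ratio scaling these were 1 risen and 2 fallen, where 1877 and 1115 of the 14928 genes did so. Groups did not overlap in 16 members that were higher with AAI (background 34.2%) and 11 that were lower (background 26.6%). The members' median difference was 0.10, as was that of all genes. With median-ratio scaling the medians were -0.03 and -0.02: CCNE1, CDC6, MCM2, ORC1 and RRM1 lost their call, and GMNN, MCM6, GINS2 and SLBP passed as lower. With all 4 groups in the fit CDC6, MCM2, MCM8, POLA1, PRIM1, E2F7, E2F8, CCNE1, CCNE2 and RRM1 lost theirs, leaving 6 risen and 4 fallen. Libraries of the 2 AAI comparisons are not shared between them: of the 6 members that rose in SCR cells 5 also rose in siB cells (83.3% of the first list, 33.3% of the second), and POLA2 fell in both. The same overlap was not counted over all genes, so it is not read as particular to the members.

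**Figure D2:**
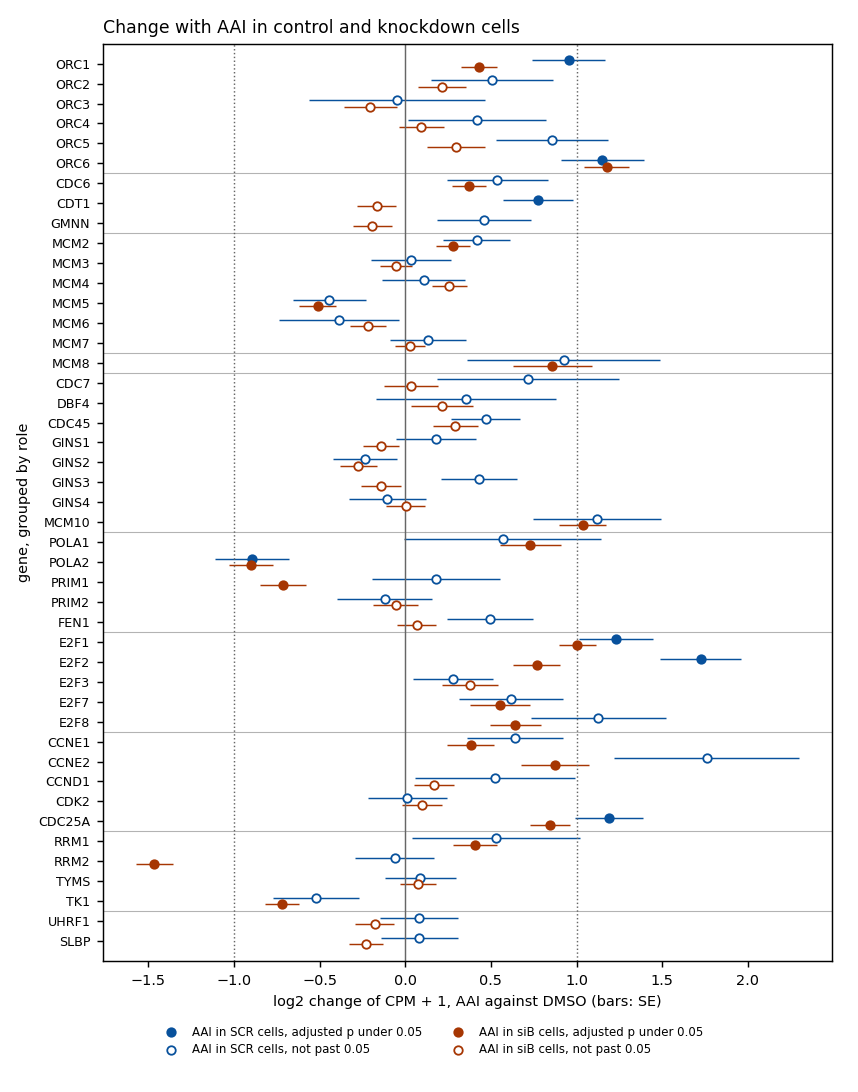
Change of log2(CPM + 1) between AAI and DMSO for each gene in SCR cells (blue) and siB cells (brown), with standard errors; filled points passed an adjusted p of 0.05 and dotted lines mark 2-fold. E2F1, ORC6 and CDC25A lie near or above 1 in both, and RRM2 lies at -0.06 in SCR cells and at -1.46 in siB cells.

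Knockdown under AAI lowered a small set of members and raised none. In siB AAI against SCR AAI libraries 6 of 45 members changed (background 9.28% of 14946 genes), and all of them fell (background 3.79% lower, 5.49% higher): RRM2, CDT1, E2F2, PRIM1, CDC25A and GINS1. RRM2 was the only one to change by at least 2-fold (background 0.629% lower, 3.04% higher). The siB AAI libraries lay wholly below the SCR AAI libraries in 12 members (background 15.8%) and wholly above in 1, GINS4 (background 15.1%). The members' median difference was -0.14, against 0.0023 for all genes, and 31 of 45 lay below 0. This comparison shares its SCR AAI libraries with the AAI comparison in SCR cells and its siB AAI libraries with that in siB cells. A gene called in 2 of these comparisons therefore does not have 2 separate supports. Same-numbered libraries deviated together here too, again with no label that pairs them. With the replicate block 11 members fell, the same 6 and ORC2, GMNN, MCM7, GINS3 and MCM10. Over all genes that block fit called 4325, with a lowest adjusted p by limma of 2.1e-40, against 5.8e-04 without the block. Values that small from 3 against 3 libraries are not credible as they stand. The block's adjusted p-values for this comparison, also those printed below for single members, are therefore descriptions and not stronger evidence. Without SCR AAI replicate 3, or without siB AAI replicate 1, 2 or 3, only 2 members remained past the threshold, RRM2 and CDT1 each time.

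**Figure D3:**
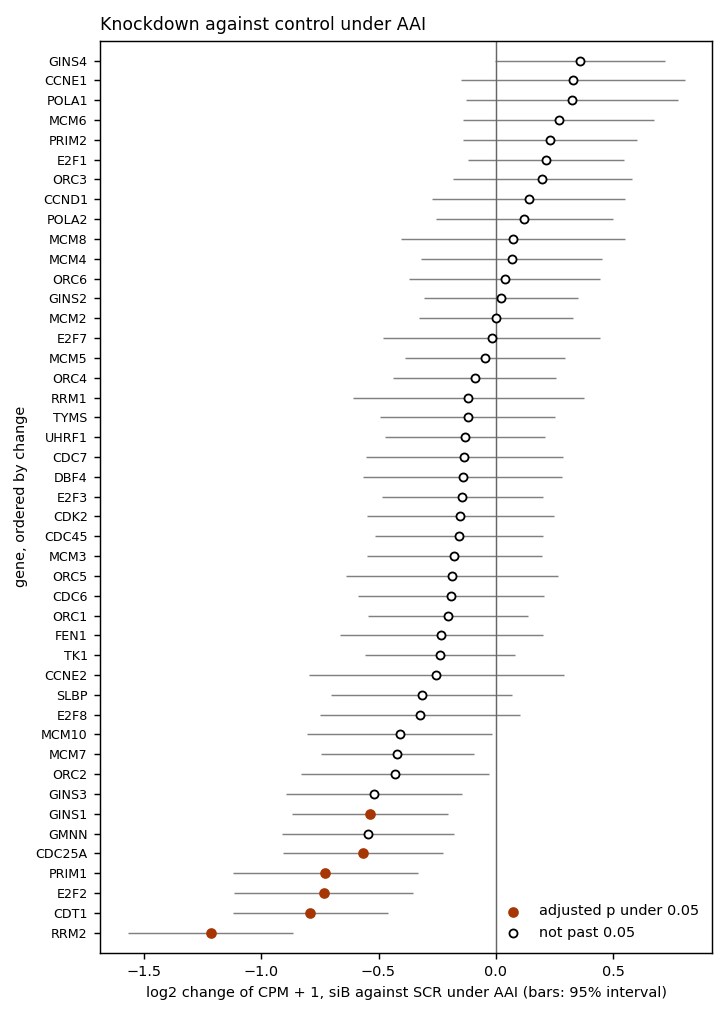
Difference of siB AAI from SCR AAI libraries in log2(CPM + 1) with limma's 95% intervals, for the 45 genes in order of size. The 6 filled points passed an adjusted p of 0.05, from GINS1 (-0.54) to RRM2 (-1.21), and no gene passed on the higher side.

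Without AAI the knockdown had no called effect on the members. Between siB DMSO and SCR DMSO libraries limma called 0 of the 13606 genes tested (background 0.00%), with 644 genes at an unadjusted p under 0.05, and voom on recovered reads also called 0. The lowest adjusted p by limma over all genes was 0.257. The siRNA target POLR2A was thus not called either, although every siB DMSO library lay below every SCR DMSO library. The absence of calls therefore does not show that the knockdown had no effect without AAI. A fit over all 4 groups called 12 genes, none of them a member. The siB libraries lay wholly above the SCR libraries in 4 members (background 8.28%) and wholly below in 3 (background 3.64%). E2F1 and CCNE1 were the 2 members at an unadjusted p under 0.05, both higher in siB. Their differences were 0.44 for E2F1 (95% interval 0.01 to 0.86) and 0.59 for CCNE1 (0.20 to 0.97), and both failed the correction (adjusted p = 0.9998 for both). The members' median difference was 0.11, and -0.08 without SCR DMSO replicate 2.

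Among the E2F factors, which drive or restrain the transcription of replication genes, the activators E2F1 and E2F2 rose most clearly with AAI. E2F1 stood at 107, 145 and 106 CPM in SCR DMSO, 266, 316 and 252 in SCR AAI, 142, 166 and 173 in siB DMSO and 312, 310 and 341 in siB AAI. Every AAI library lay above every DMSO library, with or without the knockdown. The difference with AAI was 1.23 in SCR cells (SE 0.22, adjusted p = 0.0089) and 1.003 in siB cells (SE 0.11, adjusted p = 7.2e-05), and between the AAI groups 0.21 (95% interval -0.12 to 0.54). With median-ratio scaling the call in SCR cells was lost (1.01, adjusted p = 0.0608).

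E2F2, the lowest member per length in control cells, stood at 15.5, 13.3 and 17.0 CPM in SCR DMSO, 44.4, 57.4 and 57.1 in SCR AAI, 16.9, 18.4 and 18.5 in siB DMSO and 27.3, 33.4 and 33.5 in siB AAI. The groups did not overlap with AAI in either background, and the siB AAI libraries lay between the DMSO and the SCR AAI libraries. With AAI it rose by 1.73 in SCR cells (SE 0.24, adjusted p = 0.00275) and by 0.77 in siB cells (SE 0.14, adjusted p = 0.00142). Under AAI it was lower in siB cells, by a difference of -0.73 (SE 0.18, adjusted p = 0.0239), a call lost without SCR AAI replicate 2 or 3 or any siB AAI library (adjusted p from 0.0586 to 0.106). The test of the difference between the 2 responses gave -0.96 (adjusted p = 0.0755), which did not pass. It passed with no filter (adjusted p = 0.0433), with the replicate block (adjusted p = 0.0482) and without SCR DMSO replicate 2 (-0.87, adjusted p = 0.0405).

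Of the other E2F genes, 2 rose with AAI in the siB background. E2F7 and E2F8, the repressors, rose there by 0.55 (adjusted p = 0.025) and 0.64 (adjusted p = 0.00569), while E2F3 gave 0.38 (adjusted p = 0.0775). E2F3 passed with the replicate block (adjusted p = 0.0278) and without siB DMSO replicate 1 (0.57, adjusted p = 0.00207). The call of E2F7 was lost without siB DMSO replicate 2 or 3 or siB AAI replicate 1 (differences 0.37 to 0.52). In SCR cells E2F8 gave 1.13 (adjusted p = 0.111, 0.0245 with the replicate block), E2F7 0.62 (adjusted p = 0.242) and E2F3 0.28 (adjusted p = 0.483). Without SCR DMSO replicate 2 these were 0.70, 0.36 and 0.13 (adjusted p = 0.0721, 0.335 and 0.726). All 5 E2F differences were above 0 in both backgrounds, also with median-ratio scaling, and in SCR cells also without SCR DMSO replicate 2.

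**Figure D4:**
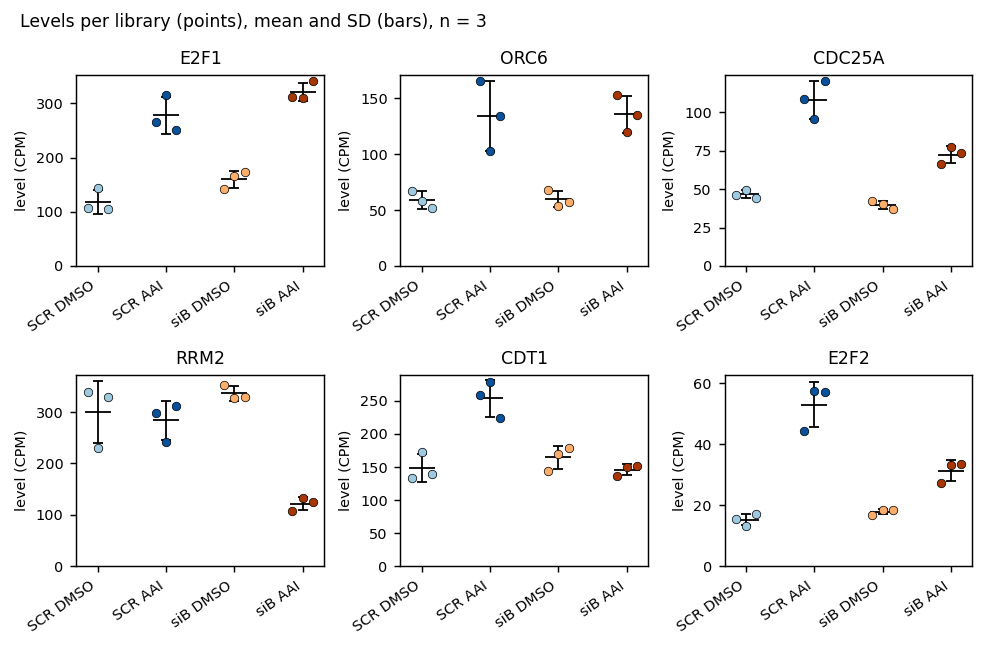
Level in CPM of 6 genes in each of the 12 libraries (points) with the mean and SD of each group (bars, n = 3), on axes starting at 0. E2F1 and ORC6 are high in both AAI groups, CDC25A and E2F2 are highest in SCR AAI, CDT1 is high in SCR AAI alone, and RRM2 is low in siB AAI alone.

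Of the G1/S cyclins and kinases, CDC25A was the one that passed in SCR cells. CDC25A, the phosphatase that activates CDK2 at the start of S phase, stood at 46.5, 49.2 and 44.3 CPM in SCR DMSO, 109, 95.7 and 120 in SCR AAI, 42.1, 40.4 and 37.1 in siB DMSO and 66.7, 77.2 and 73.5 in siB AAI. AAI libraries lay above DMSO libraries in both backgrounds and siB AAI libraries below SCR AAI libraries, with no overlap. It rose by 1.19 in SCR cells (SE 0.20, adjusted p = 0.00707, but 0.0512 without SCR AAI replicate 3) and by 0.84 in siB cells (SE 0.12, adjusted p = 0.00029). Under AAI it was lower with knockdown, by a difference of -0.57 (SE 0.16, adjusted p = 0.0412), a call lost without SCR AAI replicate 3 or any siB AAI library (adjusted p from 0.0999 to 0.140) and with either other filter or no trend (0.0515 to 0.0639). The interaction gave -0.35 (adjusted p = 0.512).

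The E-type cyclins, partners of CDK2, rose in siB cells, CCNE1 by 0.38 (adjusted p = 0.038) and CCNE2 by 0.87 (adjusted p = 0.00505). CCNE1 lost its call without any siB DMSO library and without siB AAI replicate 1 or 3 (adjusted p from 0.0574 to 0.116). In SCR cells the libraries of CCNE2 were at 39.0, 8.04 and 27.3 CPM with DMSO and 105, 53.2 and 68.2 with AAI, so the groups did not overlap, but SCR DMSO replicate 2 was far below its group. Its difference was 1.76 (SE 0.54, adjusted p = 0.0752). It passed with the replicate block (adjusted p = 0.00552), and without SCR DMSO replicate 2 it was smaller and passed as well (1.13, adjusted p = 0.018). Without SCR DMSO replicate 1 it was larger (2.20, adjusted p = 0.0238). CDK2, the kinase itself and the highest of this role in CPM, stood at 165, 145 and 127 CPM in SCR DMSO, 187, 123 and 136 in SCR AAI, 121, 122 and 126 in siB DMSO and 151, 118 and 129 in siB AAI. These groups overlapped with AAI, and the difference was 0.01 in SCR cells (95% interval -0.52 to 0.55) and 0.10 in siB cells (-0.16 to 0.35). CCND1 gave 0.52 in SCR cells (adjusted p = 0.513) and 0.17 in siB cells (adjusted p = 0.256), and its SCR value was -0.05 without SCR DMSO replicate 1 and 0.84 without replicate 2.

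In the origin recognition complex, ORC6 and ORC1 rose with AAI and the other subunits did not pass. ORC6, the smallest subunit, stood at 67.5, 57.8 and 52.1 CPM in SCR DMSO, 166, 103 and 134 in SCR AAI, 67.5, 53.6 and 57.5 in siB DMSO and 153, 120 and 135 in siB AAI. AAI libraries lay above DMSO libraries in both backgrounds, and the AAI groups overlapped each other. The difference was 1.15 in SCR cells (SE 0.24, adjusted p = 0.0194) and 1.18 in siB cells (SE 0.13, adjusted p = 9.1e-05), and the interaction 0.03 (95% interval -0.56 to 0.61). In SCR cells the call was lost without SCR DMSO replicate 3 or SCR AAI replicate 1 or 3 (adjusted p from 0.0814 to 0.0886).

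ORC1, an ATP-binding subunit whose protein is degraded after S phase begins, rose by 0.95 in SCR cells (adjusted p = 0.0243) and by 0.43 in siB cells (adjusted p = 0.0069). Its call in SCR cells was lost without SCR DMSO replicate 3 or any SCR AAI library (adjusted p from 0.062 to 0.117), and with median-ratio scaling both calls were lost (0.74, adjusted p = 0.0686, and 0.31, adjusted p = 0.0533). For the other 4 subunits, ORC2 to ORC5, differences with AAI ran from -0.05 to 0.86 in SCR cells and from -0.20 to 0.30 in siB cells. The largest of these, ORC5 in SCR cells, had an adjusted p of 0.139 (0.0323 with all 4 groups in the fit). Without SCR DMSO replicate 2 the SCR differences ran from -0.70 to 0.55. Under AAI, ORC2 was lower with knockdown, by a difference of -0.43 (adjusted p = 0.164, 0.0253 with the replicate block).

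Of the licensing factors, CDT1 changed in 2 comparisons, rising with AAI in SCR cells and falling with knockdown under AAI. Both use the same SCR AAI libraries, so they are not separate support. CDT1, which brings the MCM helicase to origins, stood at 133, 173 and 139 CPM in SCR DMSO, 259, 279 and 224 in SCR AAI, 145, 170 and 179 in siB DMSO and 136, 150 and 151 in siB AAI. The SCR AAI libraries lay above all other libraries, which overlapped one another. With AAI it rose in SCR cells by 0.77 (SE 0.20, adjusted p = 0.0465), whereas the difference in siB cells was -0.17 (95% interval -0.42 to 0.08). The rise in SCR cells was close to the threshold: it failed with median-ratio scaling (0.56, adjusted p = 0.27), with voom (adjusted p = 0.0507), with either other filter or no trend (adjusted p from 0.0597 to 0.0654) and without any 1 of 5 libraries, all but SCR DMSO replicate 2 (adjusted p from 0.0998 to 0.163). Under AAI it was lower in siB than in SCR cells, by a difference of -0.79 (SE 0.15, adjusted p = 0.00896), and this passed under all 15 alternatives. The interaction was -0.94 (SE 0.21, adjusted p = 0.0507), just short of the threshold, and passed with no filter (adjusted p = 0.0356), with the replicate block (adjusted p = 0.0317) and without SCR DMSO replicate 2 (-1.06, adjusted p = 0.0144).

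CDC6, the other loader, rose in siB cells by 0.37 (adjusted p = 0.0119), and lost the call without siB DMSO replicate 2 or 3 (adjusted p = 0.054 and 0.0687). In SCR cells it gave 0.54 (adjusted p = 0.289), and 0.28 without SCR DMSO replicate 2. GMNN (geminin), the inhibitor of CDT1, gave 0.46 in SCR cells (adjusted p = 0.33, and 0.22 without SCR DMSO replicate 2) and -0.19 in siB cells (adjusted p = 0.182). Under AAI, GMNN libraries were at 87.8, 63.1 and 74.1 CPM in SCR cells and 54.0, 46.5 and 51.7 in siB cells, with no overlap, and the difference was -0.54 (adjusted p = 0.0635, 0.00217 with the replicate block).

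The 6 subunits of the MCM helicase, among the most abundant members, moved little. MCM2, the highest of them in CPM, stood at 428, 509 and 394 CPM in SCR DMSO, 626, 574 and 569 in SCR AAI, 461, 509 and 487 in siB DMSO and 622, 537 and 614 in siB AAI. AAI libraries lay above DMSO libraries in both backgrounds, by 0.42 in SCR cells (adjusted p = 0.222, 0.0377 with all 4 groups in the fit) and 0.28 in siB cells (adjusted p = 0.0387). The call in siB cells was lost without siB DMSO replicate 1, 2 or 3 or siB AAI replicate 1 or 3 (adjusted p from 0.0763 to 0.117) and with median-ratio scaling (0.16, adjusted p = 0.284). MCM5 fell in siB cells, by a difference of -0.51 (SE 0.11, adjusted p = 0.00346), and gave -0.44 in SCR cells (adjusted p = 0.232).

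In SCR cells none of the 6 MCM subunits passed, with differences from -0.44 to 0.42 and a median of 0.07, which was -0.15 with median-ratio scaling and -0.05 without SCR DMSO replicate 2. MCM6 passed as lower in SCR cells only without SCR DMSO replicate 2 (-0.75, adjusted p = 0.0457). MCM3, MCM4 and MCM7 gave intervals in siB cells of -0.26 to 0.15, 0.02 to 0.49 and -0.17 to 0.23. MCM7 was lower with knockdown under AAI, by a difference of -0.42 (adjusted p = 0.102, 0.0151 with the replicate block). MCM8, not part of this ring, stood at 106, 20.6 and 74.6 CPM in SCR DMSO, 134, 72.9 and 119 in SCR AAI, 88.7, 44.3 and 56.5 in siB DMSO and 134, 105 and 96.6 in siB AAI. Its SCR groups overlapped and its siB groups did not: the difference was 0.92 in SCR cells (adjusted p = 0.337; 0.24 without SCR DMSO replicate 2, adjusted p = 0.593) and 0.86 in siB cells (adjusted p = 0.0111).

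Among the origin firing factors, MCM10 rose and most others did not pass. MCM10, which joins the helicase to DNA polymerase alpha, stood at 41.6, 16.6 and 38.9 CPM in SCR DMSO, 75.3, 51.2 and 76.1 in SCR AAI, 28.3, 21.5 and 22 in siB DMSO and 50.1, 50.5 and 48.6 in siB AAI. AAI libraries lay above DMSO libraries in both backgrounds, and siB AAI libraries lay below SCR AAI libraries. The difference with AAI was 1.04 in siB cells (SE 0.14, adjusted p = 0.00025) and 1.12 in SCR cells (SE 0.37, adjusted p = 0.098, 0.0122 with the replicate block, and 0.71 with an adjusted p of 0.0542 without SCR DMSO replicate 2). Under AAI the knockdown difference was -0.41 (adjusted p = 0.177, 0.0269 with the replicate block).

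GINS1, the highest firing factor in CPM, stood at 105, 66.4 and 77.5 CPM in SCR DMSO, 102, 84.1 and 92.2 in SCR AAI, 72.0, 68.1 and 70.0 in siB DMSO and 59.6, 65.5 and 65.2 in siB AAI. Its siB AAI libraries were the lowest of the 4 groups and lay clear of SCR AAI. Under AAI it fell with knockdown, by a difference of -0.54 (SE 0.15, adjusted p = 0.0468), and the call was lost without SCR AAI replicate 1 or 3 or any siB AAI library (adjusted p from 0.0929 to 0.147) and under 5 further settings (0.0509 to 0.0768). GINS3 gave a difference of -0.52 in the same comparison (adjusted p = 0.0794, 0.00482 with the replicate block), GINS2 0.02 and GINS4 0.36 (adjusted p = 0.954 and 0.2), so the 4 subunits of the complex were not shifted alike. CDC45 gave 0.47 with AAI in SCR cells (adjusted p = 0.184, 0.0392 with all 4 groups in the fit) and 0.29 in siB cells (adjusted p = 0.0914, 0.0478 with the replicate block). CDC7 and its activator DBF4 gave 0.72 and 0.35 in SCR cells, with SE of 0.53 each, and 0.09 and -0.29 without SCR DMSO replicate 2 (adjusted p = 0.862 and 0.487). SCR DMSO replicate 2 held 7.22 and 7.34 CPM of them, against 22.5 to 38.1 in the other 2 libraries.

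The primase and polymerase alpha subunits split in siB cells. POLA2, the regulatory subunit of polymerase alpha, fell with AAI in both backgrounds, from 39.4, 35.2 and 39.1 CPM in SCR DMSO to 20.5, 19.3 and 19.9 in SCR AAI and from 39.8, 44 and 40.5 in siB DMSO to 23.0, 23.0 and 19.3 in siB AAI. No AAI library reached any DMSO library. The differences were -0.89 (SE 0.21, adjusted p = 0.0322) and -0.90 (SE 0.13, adjusted p = 0.0004), and in SCR cells the call was lost without SCR DMSO replicate 1 or 3 or any SCR AAI library (adjusted p from 0.0746 to 0.136).

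POLA1, the catalytic subunit, went the other way in siB cells, rising by 0.73 (SE 0.18, adjusted p = 0.00724), a call lost with all 4 groups in the fit (0.268). In SCR cells POLA1 gave 0.57 (adjusted p = 0.565), and -0.15 without SCR DMSO replicate 2 (adjusted p = 0.735). PRIM1, the catalytic primase, stood at 38.8, 35.7 and 33.6 CPM in siB DMSO and 19.2, 23.1 and 22.6 in siB AAI, and fell by a difference of -0.71 (adjusted p = 0.0018). Its SCR AAI libraries held 37.4, 30.8 and 41.6 CPM, so siB AAI was lower than SCR AAI without overlap, by -0.73 (adjusted p = 0.0279), a call lost without SCR AAI replicate 3 or any siB AAI library (adjusted p from 0.0699 to 0.119) and with all 4 groups in the fit (0.169). PRIM2, its partner, gave -0.05 with AAI in siB cells (95% interval -0.35 to 0.24). FEN1, the flap endonuclease of the lagging strand, stood at 92.6, 106 and 81.3 CPM in SCR DMSO, 173, 99.7 and 131 in SCR AAI, 109, 105 and 105 in siB DMSO and 124, 97.1 and 116 in siB AAI. Its groups overlapped with AAI in both backgrounds, and the differences were 0.49 (adjusted p = 0.258) and 0.07 (adjusted p = 0.644).

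The nucleotide supply genes held the member with the clearest knockdown effect. RRM2, the small subunit of ribonucleotide reductase, which makes the deoxynucleotides for S phase, stood at 340, 230 and 329 CPM in SCR DMSO, 299, 241 and 313 in SCR AAI, 353, 327 and 329 in siB DMSO and 108, 132 and 125 in siB AAI. The siB AAI libraries lay far below all others, the SCR groups overlapped each other, and siB DMSO overlapped SCR DMSO but lay above SCR AAI. With AAI it fell in siB cells, by a difference of -1.46 (SE 0.11, adjusted p = 8.3e-06), whereas the difference in SCR cells was -0.06 (95% interval -0.60 to 0.47), and -0.24 without SCR DMSO replicate 2 (adjusted p = 0.458). Under AAI it was lower with knockdown, by -1.21 (SE 0.16, adjusted p = 0.00166), and both of these calls held under all 15 alternatives. Both calls rest on the same siB AAI libraries.

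RRM2 was the only member whose response to AAI differed between backgrounds in the test of the difference itself (interaction -1.40, SE 0.24, adjusted p = 0.0163), where the background was 1.61% of 15325 genes, 0.157% lower (24 genes) and 1.46% higher. Without SCR DMSO replicate 2 the interaction called 1010 genes, 498 higher and 512 lower. The call held in 14 of 20 alternatives, with differences from -1.51 to -1.22. It was lost with a mean CPM of at least 5 (adjusted p = 0.113), with voom (adjusted p = 0.142), without SCR AAI replicate 3 (adjusted p = 0.0533) and without siB DMSO replicate 1, 2 or 3 (adjusted p from 0.0537 to 0.0572). Over all members the interaction had a median of -0.18 against -0.06 for all genes, with 8 of 45 above 0, but without SCR DMSO replicate 2 these became -0.06 and 0.06, with 19 of 45 above 0.

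RRM1, the large subunit of the same enzyme, stood in contrast at 155, 122 and 132 CPM in siB DMSO and 205, 162 and 176 in siB AAI. It rose with AAI in siB cells by 0.41 (adjusted p = 0.0238), a call lost without siB DMSO replicate 2 or 3 or siB AAI replicate 1 or 3 (adjusted p from 0.0592 to 0.107). TK1, thymidine kinase, stood at 301, 509 and 329 CPM in SCR DMSO, 276, 268 and 230 in SCR AAI, 333, 356 and 392 in siB DMSO and 214, 223 and 216 in siB AAI. AAI libraries lay below DMSO libraries in both backgrounds. The difference was -0.72 in siB cells (SE 0.10, adjusted p = 0.00029) and -0.52 in SCR cells (SE 0.25, adjusted p = 0.226), where SCR DMSO replicate 2 was high and the difference without it was -0.29. TYMS, thymidylate synthase, gave 0.09 and 0.07 in SCR and siB cells, with 95% intervals of -0.39 to 0.57 and -0.17 to 0.32.

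The remaining genes, for chromatin and histone mRNA, did not pass in any comparison. SLBP, which binds histone mRNA, stood at 213, 201 and 194 CPM in SCR DMSO, 256, 164 and 235 in SCR AAI, 221, 190 and 196 in siB DMSO and 174, 170 and 173 in siB AAI. Its siB AAI libraries lay below siB DMSO, and the difference there was -0.23 (adjusted p = 0.0757). UHRF1, which keeps DNA methylation through replication, gave 0.08 with AAI in SCR cells (adjusted p = 0.851, and 0.24 without SCR DMSO replicate 2) and -0.18 in siB cells (adjusted p = 0.217).

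**Figure D5:**
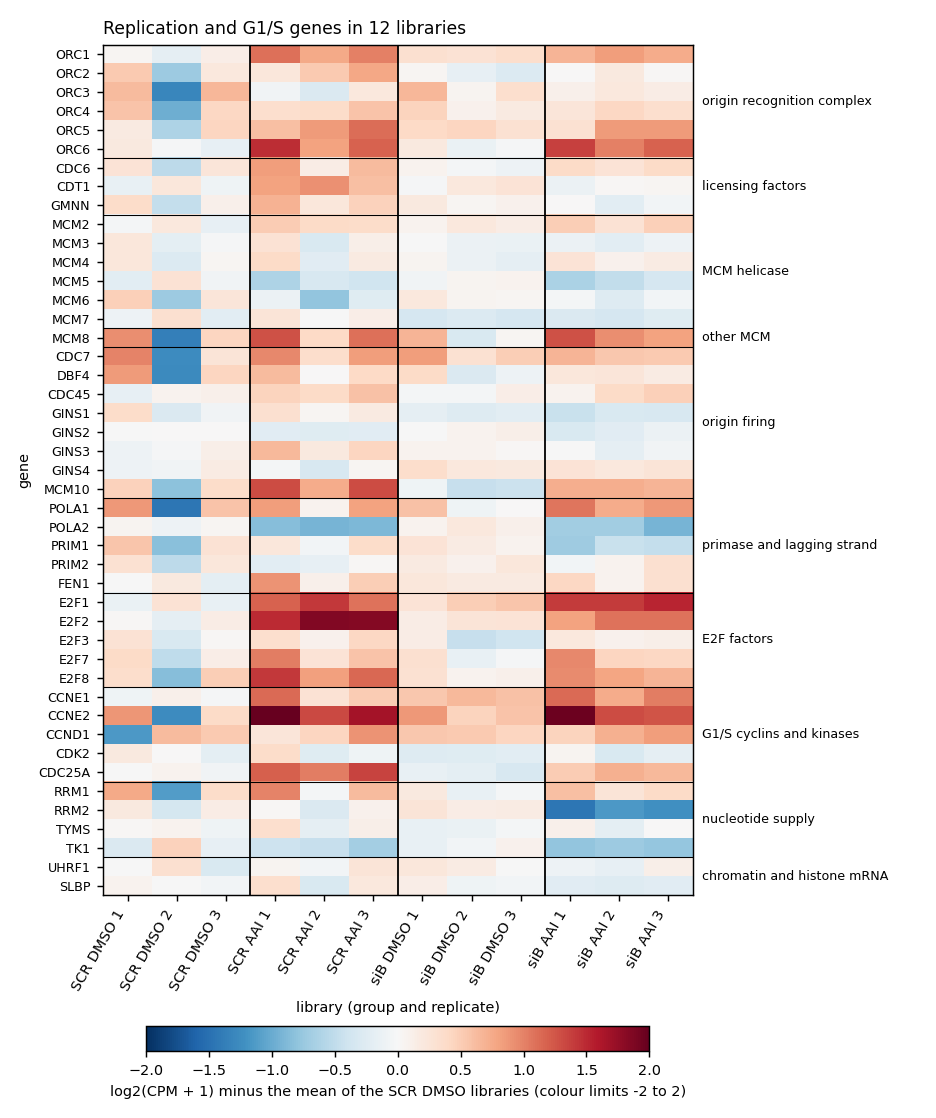
Each gene (rows, grouped by role) in each of the 12 libraries (columns), coloured by log2(CPM + 1) minus the mean of the 3 SCR DMSO libraries, from -2 (blue) to 2 (red). E2F1, E2F2, CCNE2 and ORC6 are red in all 6 AAI libraries, RRM2 is blue in the 3 siB AAI libraries, and SCR DMSO replicate 2 is blue for MCM8, CDC7, DBF4, POLA1 and other genes.

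Per length of transcript, the members covered a wide range of levels in control cells. TK1 and MCM7 were the highest in SCR DMSO, at 265 ± 79.0 and 225 ± 44.7 CPM per kb (SD, n = 3), followed by TYMS, MCM2, SLBP and MCM4 between 109 and 133. TK1 and MCM7 did not differ beyond their spread. RRM2 ranked 8 of 45 in control cells at 91.9 ± 18.5 CPM per kb and averaged 37.3 in siB AAI. E2F2, E2F8 and ORC4 were the lowest, at 2.94, 3.02 and 5.68 CPM per kb, the first pair within their spread.

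Other genes of the same processes were followed as fixed lists. Of 31 elongation and fork genes, 2 rose (background 8.98%) and 0 fell (background 3.36%) with AAI in SCR cells. The 31 had a median of 0.44, close to the members' 0.43. Without SCR DMSO replicate 2 the members' median was 0.14, and that of the 31 was not computed. The 2 that rose were RECQL4, a helicase needed for firing, at 1.11 (SE 0.25, adjusted p = 0.0272) and POLE3, a small subunit of polymerase epsilon, at 1.02 (SE 0.20, adjusted p = 0.0143). In siB cells 13 rose (background 30.4%) and 6 fell (background 21.8%). Among those that rose were CLSPN (claspin), a checkpoint adaptor, at 1.27 and DNA2, a helicase and nuclease, at 0.94. None of the 31 passed in siB AAI against SCR AAI (background 9.28%), with a median of -0.09.

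Of 22 further G1/S regulators, 1 fell (background 3.36%) and 0 rose (background 8.98%) with AAI in SCR cells. It was CDC25B, the phosphatase relative that acts before mitosis, at -1.33 (SE 0.19, adjusted p = 0.0035), and it fell in siB cells too, at -1.59. In siB cells 2 rose (background 30.4%) and 5 fell (background 21.8%), the second largest change being CCND2 (cyclin D2) at -1.30. Under AAI the knockdown lowered 2 (background 3.79%). These were E2F6, a repressor E2F, at -0.74 (adjusted p = 0.0279) and FBXO5 (EMI1), an inhibitor of the anaphase-promoting complex, at -0.63 (adjusted p = 0.0319). Of 18 chromatin and nucleotide genes of S phase, 0 passed with AAI in SCR cells (background 12.3%), with 2 at an unadjusted p under 0.05 by limma. In siB cells 5 rose (background 30.4%), with ATAD2, a chromatin ATPase, at 1.33, and 1 fell (background 21.8%), CTPS1, which makes CTP, at -1.25.

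Mitosis genes that changed with AAI all fell. Of 25, none rose (background 8.98%) and 6 fell (background 3.36%) with AAI in SCR cells. In siB cells none rose (background 30.4%) and 13 fell (background 21.8%). The medians were -0.31 and -0.43. KIF20A, a kinesin of cell division, differed by -2.06 in SCR cells and -1.97 in siB cells, and CCNB1 (cyclin B1) by -1.37 and -1.38. Knockdown under AAI lowered 1 (background 3.79%), AURKB (aurora kinase B), at -0.54 (adjusted p = 0.0484).

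Gene span and the presence of an E2F core were set beside the members' responses to AAI, without a test. The median span was 24.9 kb against 32.7 kb for all expressed genes. Across the 45 members span and the AAI difference in SCR cells had a Spearman rho of -0.10, or -0.33 without SCR DMSO replicate 2. With the span of the shortest annotated transcript rho was 0.02, or -0.03 without that library, all given as descriptions. Without that library the median difference was 0.25 over the shorter members and 0.13 over the longer ones. The 19 members with a core had a median AAI difference of 0.28 in SCR cells, with 4 risen and 1 fallen, and the 19 without had 0.49, with 2 risen and 0 fallen (backgrounds 8.98% risen and 3.36% fallen). Without SCR DMSO replicate 2 this order reversed. The middle value was then 0.24 (UHRF1) among members with a core and 0.14 (ORC2) among those without. In siB cells the medians were 0.03 and 0.21. Under AAI the knockdown lowered 4 of those with a core and 2 of those without, RRM2 among the latter (background 3.79%).

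Some reads may belong to neighbours. Of the 45 members 26 overlap another annotated gene (GENCODE 44), 23 of them on the opposite strand, and whether the counting used strand was not given in the sources used here. RRM2 and CDC25A overlap genes on the opposite strand, whereas E2F1, E2F2, CDT1 and ORC6 overlap none.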

How the data were processed

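RNA sequencing of 12 libraries was analysed, with groups and replicate numbers from the sample titles, since a treatment field read DMSO throughout. Per the study's methods, the authors counted reads per gene on hg38 with a UCSC annotation. The aligner was not given in the sources used here. They deposited log10 values, log10 of CPM (reads per gene scaled to a fixed library total) plus 1; 10 to that power minus 1 gave CPM, and 100% of values were whole multiples of 1 read (tolerance 0.05 read). The limit that 0 reads allow (3 reads) covers counting error only. Tests used limma 3.58.1 in R 4.3.3 (lmFit, eBayes with trend) on log2(CPM + 1), on genes with at least 1 CPM in at least 3 libraries of the fit, with Benjamini-Hochberg adjustment over all genes tested. A member changed at an adjusted p under 0.05, and 2-fold means 1 on the log2 scale. Pairs of groups were fitted alone and the interaction over all 4. Because the values were log10 CPM, count models were not the main test. One transcript, AC010970.2, took 0.189% to 10.6% of reads, which bears on CPM, so scaling without it was 1 alternative. The others were a pseudocount of 0.1, median-ratio scaling, 2 other filters, a replicate block, a fit over all 4 groups, no trend, voom on recovered reads, and each library left out.

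Same-numbered libraries deviated together over 15325 genes in SCR with AAI against DMSO (correlations 0.42, 0.47 and 0.34) and in siB against SCR under AAI (0.61, 0.32 and 0.29). In the latter, replicates 2 and 3 also correlated when crossed (0.22 and 0.21). No label says that the numbers pair libraries, so the block was an alternative only. In siB against SCR under AAI its adjusted p-values by limma reached 2.1e-40 over all genes and are given as descriptions. Members, lists and roles were chosen with earlier results of these data known. Values per library are given for members changed by at least 2-fold or called in the interaction and for the highest in CPM of each role. They are also given, chosen after values were seen, for CCNE2, POLA2, PRIM1, GMNN and RRM1. From each other list up to 2 called genes per comparison with the largest change and a mean CPM of at least 5 are named. Gene spans came from GENCODE 44, matched for all 45 members. Transcript lengths for CPM per kb came from the same annotation.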

Additional observations from a re-analysis of the deposited data

Results flagged for a closer look

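The response of RRM2 to AAI differed between siB and SCR cells in the test of the difference itself, the interaction of siRNA and AAI. It was -1.40 on the log2(CPM + 1) scale (SE 0.24, limma adjusted p = 0.0163), with group means (± SD, n = 3) of 299.5 ± 60.3 CPM in SCR DMSO, 284 ± 37.8 in SCR AAI, 336 ± 14.2 in siB DMSO and 122 ± 12.6 in siB AAI. All 3 siB AAI libraries were below all 9 others. SCR DMSO replicate 2, which stands apart for many of the genes, held 230 CPM, and without it the interaction was -1.22 (adjusted p = 0.00881). The call was lost with voom (adjusted p = 0.142) and with a mean CPM of at least 5 (adjusted p = 0.113), where 0 genes were called. It was also lost without SCR AAI replicate 3 or siB DMSO replicate 1, 2 or 3 (adjusted p from 0.0533 to 0.0572). No other member passed this test.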

How the results depend on the processing

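The number of members changed with AAI in SCR cells (7) was 14 with all 4 groups in the fit and ran from 2 to 9 when 1 library was left out, the lowest without SCR AAI replicate 3. In siB cells (20) it was 10 with all 4 groups in the fit and ran from 15 to 23 with 1 library left out. Between AAI groups (6) it was 11 with the replicate block, and ran from 2 to 9. The interaction (1) gave 3 with no filter, 3 with the replicate block, 0 with a mean CPM of at least 5, 0 with voom, and 0 to 3 with 1 library left out. No called value changed sign. The members' median did: in siB cells from 0.10 to -0.03 with median-ratio scaling, and for siB against SCR under DMSO from 0.11 to -0.08 without SCR DMSO replicate 2. Over all genes tested, calls with AAI in SCR cells were 1755, against 769 with a mean CPM of at least 5, 3784 with all 4 groups in the fit and 2997 with the replicate block, and the share of calls that were higher was 72.8% against 56.5% with median-ratio scaling. In siB cells they were 7794 against 5141 with all 4 groups, between AAI groups 1387 against 710 with a mean CPM of at least 5 and 4325 with the replicate block, and for the interaction 247 against 46 with a pseudocount of 0.1, 625 with no filter and 0 with voom or a mean CPM of at least 5. With 1 library left out, calls ran from 887 (without SCR AAI replicate 3) to 3156 (without SCR DMSO replicate 2) with AAI in SCR cells, from 213 (without SCR AAI replicate 3) to 2104 (without SCR AAI replicate 1) between AAI groups, and from 81 (without siB DMSO replicate 3) to 1010 (without SCR DMSO replicate 2) for the interaction. The share higher between AAI groups was 59.1% against 37.9% with a mean CPM of at least 5. The cause of these shifts was not tested. For AAI in siB cells and for siB against SCR under DMSO not every same-numbered pair correlated (lowest 0.026 and -0.19), so the number is not taken to pair them. The block gave 24 members changed in siB cells and 0 under DMSO. For single members and comparisons, 3265 of 3600 values kept direction and side of the threshold, 191 with no call changed sign, 94 lost the call and 50 gained one. Fits with 1 library left out use the genes tested with all.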
